A study of Mus musculus with 5 samples.

Results

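These 28817 tiles are stretches of 1 kb on the autosomes that only the deeper libraries of the series measured well. A tile began at a multiple of 1000 in mouse build mm9. It entered the set when at least 3 CpG positions in it had 10 or more reads in each of 3 deep libraries, and when no position in it was listed in all 5 libraries. A position is 1 cytosine of a CpG on 1 strand. The set made up 45.9% of the 62722 tiles with at least 3 such positions in the deep libraries, and 5.73% of the 502761 autosomal tiles with any listed position. The other 33905 tiles with 3 positions in the deep libraries held at least 1 position listed in all 5. The 28817 tiles are called members below. The rule used coverage only and no methylation level.

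The libraries came from bone marrow cells of the LSK fraction, which lack markers of mature blood lineages and carry Sca1 and Kit. The mice were of a mixed 129Ola and C57Bl/6J background and were either Idh1-R132H knock-in, with 3 libraries, or wild-type, with 2. The deep libraries were the knock-in replicates numbered 1 and 3, written KI1 and KI3, and the wild-type replicate numbered 2, WT2. The shallow ones were the knock-in replicate numbered 2, KI2, and the wild-type replicate numbered 1, WT1. Levels given as 3 in a row stand in the order KI1, KI3, WT2 unless another order is named. The labels used here give no age, zygosity or driver of the mutant allele, and do not say whether libraries came from separate animals. CpG methylation gives no level of a marker gene, so the cell type was not checked against its markers. With 1 deep wild-type library no difference between genotypes could be tested in these tiles, and all values below are descriptions.

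Idh1 encodes the cytosolic isocitrate dehydrogenase. Its R132H form makes 2-hydroxyglutarate, which can inhibit the TET enzymes that oxidise methylated cytosine. In mammalian DNA, CpG-poor stretches are mostly methylated, and CpG islands, which cover many promoters, are mostly not. A level between the extremes means that methylated and unmethylated copies were both read, from different cells, alleles or neighbouring CpGs. The assay cuts DNA at CCGG before bisulfite treatment and so favours CpG-rich fragments. Genes and sequence at the tiles are not given, because the annotation used here belongs to another mouse build.

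The members were small. A tile had a median of 4 counted positions (range 3 to 94), and 10378 tiles, or 36.0%, had exactly 3. Together they held 164478 counted positions, which made 151414 CpGs, since in most cases only 1 strand of a CpG was counted. In 12052 tiles (41.8%) all counted positions lay on 1 strand, and in 15764 (54.7%) they lay within 100 bases. A member was thus most often read from a few neighbouring CpGs and not over its whole length.

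Depth was modest even in the deep libraries. A counted position had a median coverage of 29 reads in KI1, 72 in KI3 and 23 in WT2. The medians were 45, 116 and 35 reads in the 24319 tiles with 3 or more positions in all 5 libraries, called shared tiles below. A read over several CpGs gives 1 call at each of them, so a tile holds more calls than reads. The median number of calls per tile was 141, 311 and 96, and the lowest of the 3 libraries had a median of 86 calls (range 30 to 3822). In 36.6% of counted positions WT2 had under 20 reads.

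The shallow libraries were not wholly blank here. In 7623 tiles (26.5%) neither listed a position. In 10965 tiles (38.1%) only KI2 did, in 4319 (15.0%) only WT1, and in 5910 (20.5%) both did, though never at a position shared by all 5. Tiles seen by both shallow libraries were the least methylated, at 59.9, 58.5 and 58.1% in KI1, KI3 and WT2. Those seen by neither stood at 74.1, 72.6 and 72.2%. Members therefore differed among themselves along the same depth scale that defined them.

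Tiles on either side of the rule's limits had these levels. Members with exactly 3 counted positions averaged 79.1, 77.6 and 77.2% in the order above. The 18456 tiles with exactly 2 counted positions, just outside, averaged 82.3, 80.5 and 79.9%. The 3917 tiles with 3 or more counted positions that were kept out by a single position listed in all 5 libraries averaged 69.96, 68.4 and 67.7%, beside 68.8, 67.3 and 66.96% over all members.

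Most members were methylated. Mean levels over members were 68.8% for KI1, 67.3% for KI3 and 66.96% for WT2, and the medians were 90.1, 89.4 and 88.9%. By the mean of the 3 libraries, 17982 tiles (62.4%) were at 80% or more, 6506 (22.6%) under 20% and 4329 between. In the shared tiles the same libraries averaged 33.1, 32.2 and 32.0%, with 30.2% of tiles at 80% or more and 63.5% under 20%. Most members were thus methylated, and most shared tiles were not.

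**Figure D1:**
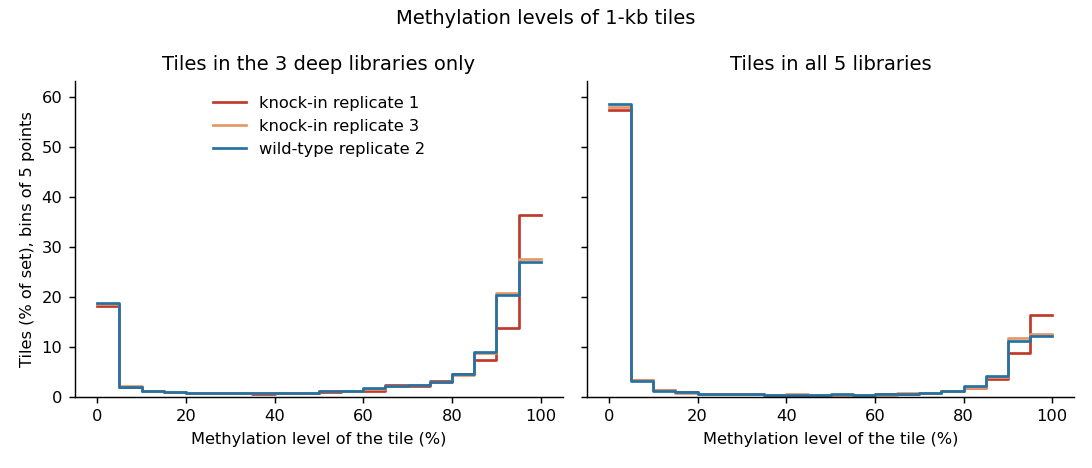
Distribution of tile methylation levels (x axis, percent, bins of 5 points) as a share of each set (y axis, percent of tiles), with 1 line for each deep library. In members, headed as tiles in the 3 deep libraries only, 27.1 to 36.4% of tiles lie in the top bin and 18.2 to 18.9% in the lowest. In shared tiles, headed as tiles in all 5 libraries, 57.4 to 58.5% lie in the lowest. Many members also hold positions of a shallow library, though none listed in all 5.

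The number of listed positions went with this split. It depends on coverage as well as on how many CpGs the tile holds, so it is not a measure of CpG density. A member had a median of 8 positions listed in any library, against 26 in a shared tile. Of the members, 17936 (62.2%) had 3 to 9 listed positions, 9296 (32.3%) had 10 to 29 and 1585 (5.50%) had 30 or more. Their mean levels were 79.8, 54.8 and 6.88% in that order. Shared tiles of the same classes were at 78.2, 42.7 and 3.27% and stood closest to the members in the sparsest class. Shared tiles also had more calls per tile in each class. Of members with 30 or more listed positions 92.2% were under 20%, against 9.26% of members with 3 to 9 positions.

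Position along the chromosome went with level as well. The 4013 members that adjoined a shared tile averaged 27.3, 26.2 and 26.0% in KI1, KI3 and WT2. A further 3020 adjoined only another member and averaged 56.2, 54.8 and 54.6%. The 21784 that adjoined neither, 75.6% of all, averaged 78.2, 76.6 and 76.2%. Isolated members were therefore the highly methylated ones, and those at the flank of well-covered DNA were mostly low. Among 1703 pairs of adjoining members the levels correlated with r = 0.794 across pairs, which share libraries and depth, and 75.2% of pairs fell in the same level class. In 5.11% of pairs a tile under 20% lay beside one at 80% or more.

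The members with the most counted positions show each class at its best depth. On chromosome 17, the tile from 32421000 to 32421999 had 94 counted positions and stood at 0.157% in KI1, 0.0697% in KI3 and 0.0515% in WT2. A tile on chromosome 13 from 60277000 to 60277999 with 78 positions stood at 1.12, 1.58 and 0.880%. The third, on chromosome 17 from 46848000 to 46848999 with 70 positions, stood at 0, 0.0599 and 0.0987%. In each of these unmethylated tiles the 3 libraries lay within 1 point, and KI2 read 0, 2.95 and 0% in them over 41, 32 and 30 of the positions.

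Methylated members of this size also existed. A tile on chromosome 5 from 122278000 to 122278999 with 58 positions stood at 95.9, 93.9 and 93.96%. One on chromosome 12 from 110272000 to 110272999 with 43 positions stood at 87.6, 81.8 and 76.4%. The tile on chromosome 11 from 96207000 to 96207999, with 38 positions, stood at 88.3, 89.0 and 84.8%. Members with many counted positions thus lay at both ends of the scale, and the first and last of these differed by under 5 points between the deep libraries. KI2 read 100, 81.2 and 99.5% in the 3 tiles over 16, 20 and 19 of the positions.

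Among partly methylated members, the tiles with the most counted positions had 40, 37 and 36. They lay on chromosome 17 from 26576000 to 26576999, on chromosome 7 from 53049000 to 53049999 and again on chromosome 17 from 91487000 to 91487999. The first stood at 70.5, 59.5 and 57.3% in KI1, KI3 and WT2. The second stood at 71.0, 73.3 and 71.6%, and the third at 73.05, 80.3 and 67.7%. The order of the libraries differed from tile to tile: KI1 was highest in the first and lowest in the second.

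In members of 20 to 80%, counted positions often differed within the tile. Of their 20430 positions, 53.2% were themselves at 20 to 80%, 15.6% were under 20% and 31.2% were at 80% or more. Of the 4329 tiles, 1283 (29.6%) held both a position under 20% and one at 80% or more, and in 794 (18.3%) all positions were at 20 to 80%. The median SD between positions of a tile was 30.1, 24.6 and 25.2 points in KI1, KI3 and WT2. In members at 80% or more it was 5.67, 5.75 and 6.27 points, and 138 of them (0.767%) held a position under 20%. A tile level in the middle class can therefore differ between libraries that spread their calls differently over the same positions.

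Both strands of a CpG could be compared at 13072 CpGs. The mean difference between strands was under 0.05 points in size in each deep library. Single CpGs scattered around it with an SD of 24.0, 19.8 and 20.7 points, and 26.3, 21.3 and 23.8% of them differed by 10 points or more. The mean difference between strands was thus near 0, while single CpGs differed in either direction.

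The knock-in libraries averaged slightly above the wild-type library, by less than they differed from each other. The mean over members was 68.0% ± 1.01 (SD, n = 2) in knock-in and 66.96% in the 1 wild-type library, a difference of 1.09 points. KI1 stood 1.81 points above wild-type and KI3 stood 0.376 points above it, while the knock-in libraries stood 1.43 points apart. The knock-in mean was above the wild-type level on each of the 19 autosomes, where the difference ranged from 0.780 to 1.71 points. The autosomes were read from the same 3 libraries and are not independent. In shared tiles the difference was 0.652 points over the same libraries. More of the shared tiles were under 20% (63.5%, against 22.6% of members), so the means cover different mixes of levels.

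Partly methylated members had the widest mean difference. They stood at 61.2% in KI1, 57.6% in KI3 and 56.5% in WT2, so that knock-in exceeded wild-type by 2.94 points and the knock-in libraries were 3.62 points apart. Members at 80% or more stood at 94.4, 93.1 and 92.8%, a difference of 0.918 points. Those under 20% stood at 3.04, 2.64 and 2.50%, a difference of 0.335 points. Over all 62722 tiles the differences were 3.33 points at 20 to 80%, 0.945 at 80% or more and 0.293 under 20%. Shared tiles of 20 to 80% averaged 53.7% in the deep knock-in libraries and 50.2% in WT2. Their differences were 0.937 points at 80% or more and 0.232 points under 20%. The difference was thus wider in members only under 20%. In each class of members KI1 was the library apart, and KI3 lay nearer to wild-type than to its own genotype.

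The same order appeared in the scatter of single tiles. In members of 20 to 80% the SD of the difference over tiles was 17.7 points between the knock-in libraries and 17.6 points between KI1 and wild-type. Between KI3 and wild-type it was 12.7 points. Over all members the levels correlated with r = 0.982 between KI3 and wild-type, and with r = 0.969 for both pairs that include KI1, across 28817 tiles that are not independent. The within-genotype distance was hence as wide as the widest distance between genotypes.

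**Figure D2:**
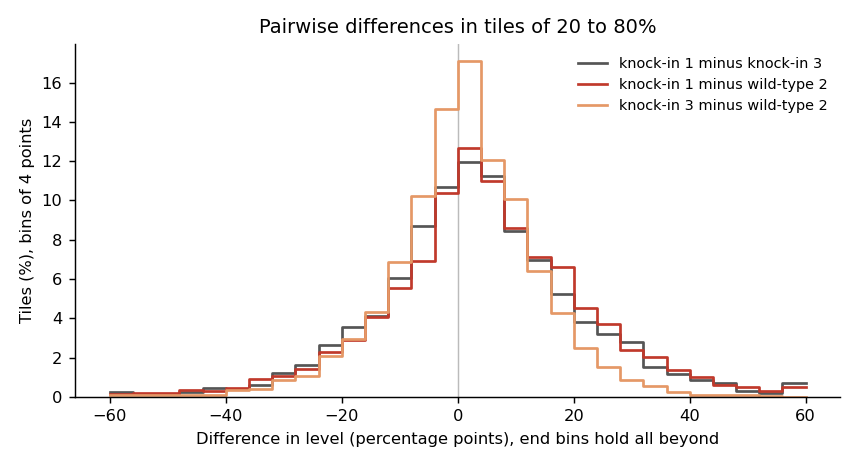
Differences in level between pairs of deep libraries (x axis, percentage points, bins of 4 points) in the 4329 members of 20 to 80%, as a share of tiles (y axis, percent). The curve for knock-in 3 minus wild-type 2 is the narrowest (SD 12.7 points), and that between the knock-in libraries is as wide as knock-in 1 minus wild-type 2 (SD 17.7 and 17.6 points).

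KI1 also differed in how many tiles it read as fully methylated. It listed 5640 members (19.6%) at exactly 100%, against 1121 (3.89%) in KI3 and 1406 (4.88%) in WT2. With reads thinned to the lowest library at each position, the shares were 21.2, 7.38 and 5.61%. At exactly 0% stood 11.97, 8.54 and 10.9% of members. KI1 thus had the most tiles at each end, and the part this plays in its higher mean was not tested.

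Members in which both knock-in libraries lay at least 10 points above wild-type outnumbered those in which both lay at least 10 points below. There were 1237 of the first kind (4.29%), against 3.09% of all 62722 tiles measured in the deep libraries, and 422 of the second (1.46%), against 0.953% of all. The ratio was 2.93, against 3.66 in shared tiles. Judged by 1 knock-in library alone, it was 1.29 in members without KI1 and 1.75 without KI3. Without KI1, 2043 members (7.09%) were above and 1588 (5.51%) below, against 5.12 and 3.72% of all 62722 tiles. Without KI3, 3663 (12.7%) were above and 2093 (7.26%) below, against 9.67 and 4.77% of all. The gap of such a tile is the distance from WT2 to the nearer knock-in library, negative where knock-in is below. More tiles lay above than below on all 19 autosomes, which were read from the same 3 libraries and are not independent. At 20 points there were 162 and 69 members (0.562 and 0.239%), against 256 and 82 of all 62722 tiles. At 10 points both shares were larger in members than over all tiles. Members also had fewer calls per tile than shared tiles, with medians of 141, 311 and 96 against 743, 1636 and 467, and the part of depth in the larger shares was not tested.

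Level class and depth both went with these counts. In members of 20 to 80%, 557 (12.9%) were above and 220 (5.08%) below, against 12.8 and 4.61% of all tiles of that class. At 80% or more, 658 (3.66%) were above and 145 (0.806%) below, against 3.06 and 0.579% of all. Under 20% the direction was the other way, with 22 above (0.338%) and 57 below (0.876%), against 0.167 and 0.326% of all. By construction, a tile whose mean is close to 0 or 100% can show a gap more readily in 1 direction than in the other.

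With more calls the gaps became rarer, and over all members tiles with knock-in above still outnumbered those below. In members under 20% they did not, with 4 above and 5 below of 2230 tiles with 240 calls or more. In members of 20 to 80% with 30 to 59 calls in the shallowest deep library, 13.5% were above and 6.80% below. With 240 calls or more, 18 of 189 tiles (9.52%) were above and 4 (2.12%) below. At 80% or more the shares went from 5.73 and 1.55% to 0.709 and 0.177%, the last being 4 and 1 of 564 tiles. Gaps thus thinned out with depth more steeply in highly methylated members than in partly methylated ones. Shared tiles also had fewer gaps with more calls. At 20 to 80% their shares were 25.5 and 6.38% of 47 tiles with 30 to 59 calls, and 8.36 and 1.15% with 240 calls or more. At 80% or more they went from 6.22 and 1.24% to 0.606 and 0%. Under 20%, 1 was above and 3 below of 13789 shared tiles with 240 calls or more.

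**Figure D3:**
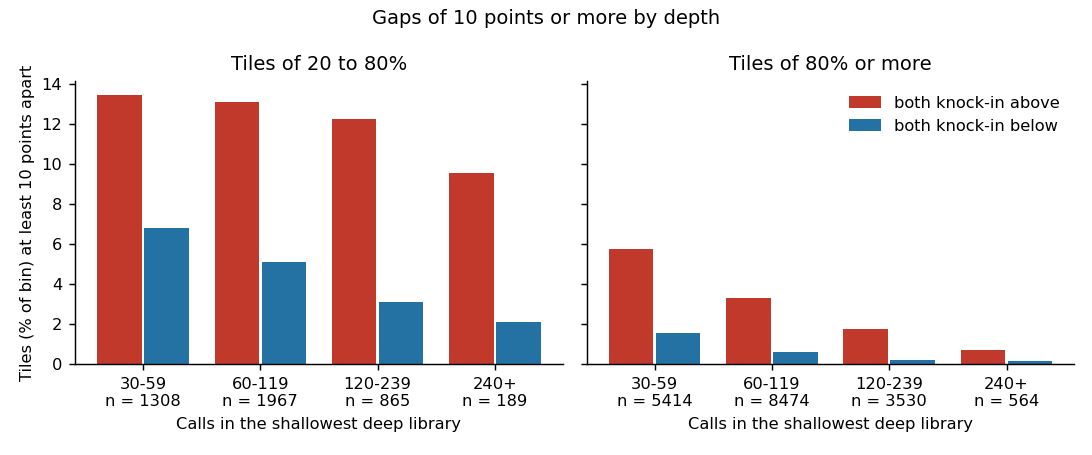
Share of members with both knock-in libraries at least 10 points above (red) or below (blue) WT2 (y axis, percent of tiles in the bin), by the number of calls in the shallowest deep library (x axis, with the number of tiles). In tiles of 20 to 80% the red bars run from 13.5 to 9.52% and the blue bars from 6.80 to 2.12%, and in tiles of 80% or more all bars shrink with depth.

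Few single gaps were wide enough to part the counting intervals of the libraries. A conservative 95% Wilson interval was computed for each tile level with the coverage of its deepest position as the number of reads, since calls of neighbouring CpGs come from shared reads. The interval covers counting error only, because reads copied by PCR are not independent molecules. By this measure both knock-in intervals lay clear above that of wild-type, with a gap of 10 points, in 50 members (0.174%, against 0.172% of all tiles), and clear below in 12 (0.0416%, against 0.0255%). The share above was that of the background.

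Single positions often went their own way inside these tiles. Of the 1237 members above, 364 (29.4%) had every counted position in the same order, and 157 (12.7%) had a position in the opposite order. Of the 422 below, 75 (17.8%) and 79 (18.7%) did. With each position weighted equally in place of each call, 999 of the 1237 and 330 of the 422 kept a gap of 10 points in the same direction. About 1 in 5 of the gaps therefore did not keep the limit of 10 points with equal weights. In 32 of the 1237 and 13 of the 422, the knock-in libraries no longer lay on 1 side of wild-type. Counted anew with equal weights, 1186 members were above and 405 below, so other tiles passed the limit instead.

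The widest gaps were ranked among the 9558 members with at least 5 counted positions and 100 calls in each deep library. Of these, 213 (2.23%) were above and 57 (0.596%) below. Over all 62722 tiles, without these limits on positions and calls, the shares were 3.09 and 0.953%. The tile with the widest gap above, on chromosome 12 from 31796000 to 31796999, stood at 89.0% in KI1, 88.3% in KI3 and 53.3% in WT2. Only 2 of its 7 positions had both knock-in libraries above wild-type. WT2 had 40 of its 105 calls at position 31796176, at 2.5%, where KI1 and KI3 had 13 and 27 reads at 100 and 44.4%. With positions weighted equally the gap of 34.9 points became 10.9 points.

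Other tiles in this direction differed at nearly every position. On chromosome 8, the tile from 86726000 to 86726999 stood at 50.9, 46.1 and 14.0%, and 5 of its 6 positions had both knock-in libraries above. On chromosome 5, the tile from 115930000 to 115930999 stood at 99.5, 87.6 and 57.9%, with both knock-in libraries above at all 13 positions. The tile from 21179000 to 21179999 on chromosome 5 stood at 60.4, 41.6 and 11.8%, with both above at all 5 positions. The gaps were wide against the distance between the knock-in libraries in the first, where it was 4.80 points. In the last it was 18.7 points beside a gap of 29.8 points.

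The remaining tiles of the 6 widest lay on chromosome 17 from 71687000 to 71687999 and on chromosome 16 from 35269000 to 35269999. The former stood at 61.2, 59.02 and 30.0%, with both knock-in libraries above at all 6 positions, on both strands of a stretch of 32 bases. The latter stood at 99.0, 92.1 and 64.2%, with both knock-in libraries above at 3 of 5 positions. Its gap went from 28.0 to 13.3 points with positions weighted equally. On chromosome 16, as on chromosome 12, the size of the gap depended on how calls were spread over positions: WT2 had 59 of its 159 calls at position 35269423, at 16.9%.

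Tiles with knock-in below were ranked likewise. The widest, on chromosome 4 from 135794000 to 135794999, stood at 15.8% in KI1, 14.9% in KI3 and 60.5% in WT2, and 7 of its 8 positions had both knock-in libraries below. Its gap of -44.6 points was wider than any above among these 9558 members, and was -36.9 points with positions weighted equally. The next, on chromosome 18 from 13148000 to 13148999, stood at 28.5, 9.04 and 62.4%, with both knock-in libraries below at all 6 positions. The knock-in libraries were 0.981 points apart in the first and 19.5 points apart in the second.

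Of the other tiles below, that on chromosome 2 from 157386000 to 157386999 stood at 33.6, 19.4 and 64.9% over 7 positions. A tile on chromosome 18 from 30427000 to 30427999 stood at 3.55, 8.31 and 36.6% over 10 positions, with 18 wild-type reads at its deepest position. On chromosome 11, the tile from 83707000 to 83707999 stood at 43.8, 39.3 and 71.6% over 5 positions. In these 3 tiles every position had both knock-in libraries below WT2, and neighbouring positions share reads. The tile from 33097000 to 33097999 on chromosome 11 stood at 19.6, 26.9 and 52.9%, and its gap went from -26.0 to -16.4 points with positions weighted equally.

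**Figure D4:**
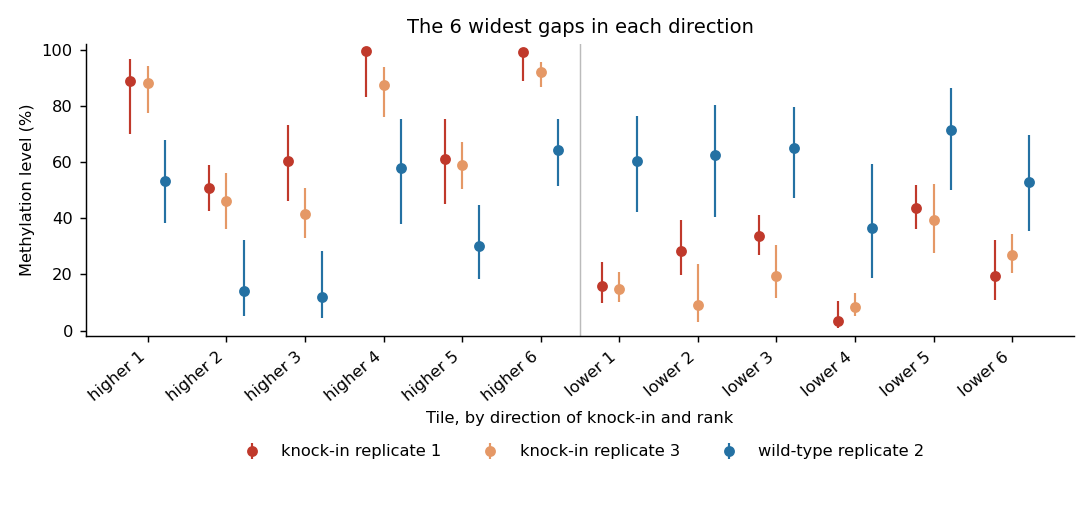
Methylation level (y axis, percent) of the 6 members with the widest gap in each direction (x axis, in order of gap), with 1 point for each deep library and conservative 95% Wilson intervals. In the tiles marked higher both knock-in points lie at least 28.0 points above wild-type, and in those marked lower their gaps reach from -26.0 to -44.6 points.

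Some members differed widely between the knock-in libraries. On chromosome 2, the tile from 118537000 to 118537999 stood at 19.5% in KI1 and 94.8% in KI3, with 42.6% in WT2. That on chromosome 9 from 40199000 to 40199999 stood at 86.2, 27.4 and 72.8%, and that on chromosome 6 from 4697000 to 4697999 at 85.03, 27.4 and 76.3%. In the first, KI2 read 94.9% over the 6 positions, beside KI3. The distance was -75.3 points (KI1 minus KI3) in the first and 58.8 and 57.6 points in the others. The widest gap between genotypes among the 9558 members of that size was -44.6 points, although a gap needs both knock-in libraries on 1 side and so is held to a stricter measure.

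The shallow libraries took no part in choosing the gaps and give a further look at part of them. KI2 listed at least 3 of the counted positions in 8598 members, with a median of 75 calls, and WT1 did so in 4731, with 57 calls. Over the positions of the former, KI2 stood at 60.1%, against 59.8 and 58.8% in KI1 and KI3 and 58.4% in WT2. Over those of the latter, WT1 stood at 56.8%, against 58.9, 57.6 and 57.3%. Each shallow library thus lay, in its mean, beyond or beside the libraries of its own genotype, by 0.317 points from the nearest for KI2 and 0.462 points for WT1.

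The distance was again widest in members of 20 to 80%. There KI2 stood at 62.7%, against 60.8, 57.9 and 56.6%, over 1019 tiles. WT1 stood at 51.4%, against 58.2, 53.3 and 52.2%, over 504 tiles. Single tiles scattered widely, with an SD of 22.2 points for KI2 minus WT2 and 20.1 points for the difference between the wild-type libraries. The tiles of both shallow libraries are different subsets, and no tile compares all 5 libraries at shared positions.

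In members above, KI2 lay mostly with the other knock-in libraries. Over 250 such tiles it averaged 77.4%, against 80.8 and 76.8% in KI1 and KI3 and 60.7% in WT2. It was above WT2 in 212 of them (84.8%), against 50.1% of the 8270 tiles with no gap. WT1, over 169 such tiles, averaged 68.7%, between 78.1 and 75.1% in the knock-in libraries and 59.6% in WT2. It was above WT2 in 122 (72.2%), against 39.5% of 4509 tiles with no gap, and nearer to the knock-in mean in 99 (58.6%), against 41.9%. The tiles were chosen on the values of KI1, KI3 and WT2, so these are extreme by selection and the shallow libraries are not. WT1 thus lay between, and somewhat nearer to the knock-in mean.

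In members below, WT1 lay nearer to the knock-in libraries. It averaged 51.4% over 53 tiles, against 46.8 and 49.3% in KI1 and KI3 and 67.9% in WT2. WT1 was below WT2 in 41 of them (77.4%), against 37.3% of tiles with no gap, and nearer to the knock-in mean in 31 (58.5%), against 41.9%. KI2 averaged 66.3% over 78 tiles, against 54.5, 56.1 and 73.4%. It was below WT2, the side of its genotype, in 51 (65.4%), against 29.1% of tiles with no gap, and nearer to the knock-in mean in 35 (44.9%), against 44.1%. In members above, KI2 was nearer to the knock-in mean in 175 of 250 (70.0%). Both shallow libraries thus lay below WT2 in most members below.

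**Figure D5:**
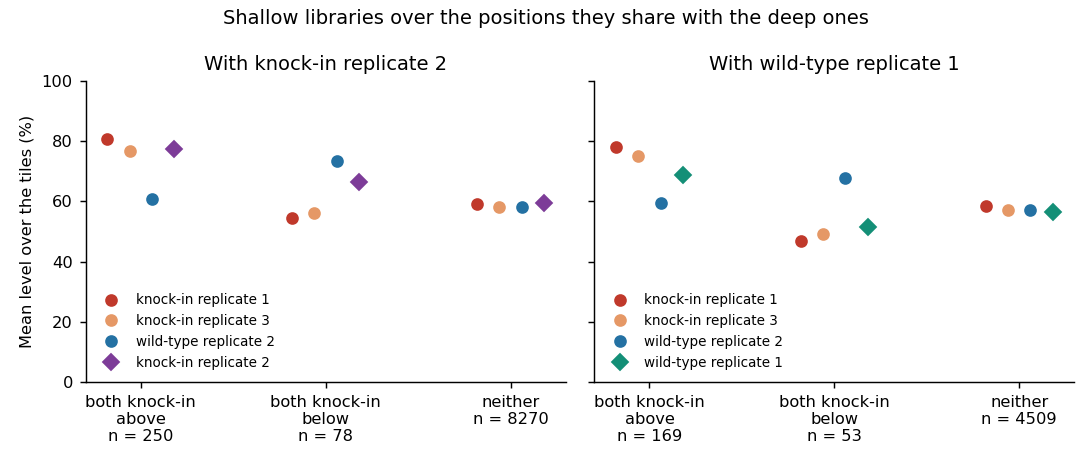
Mean level (y axis, percent) of the deep libraries (circles) and 1 shallow library (diamonds) over the positions they share, in members with both deep knock-in libraries above WT2, below it, or neither (x axis, with the number of tiles). In members below, WT1 is at 51.4%, near the knock-in libraries at 46.8 and 49.3%, and KI2 is at 66.3%, nearer to WT2 at 73.4%.

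Single tiles show both outcomes. On chromosome 19, the tile from 53575000 to 53575999 stood over 4 shared positions at 70.2 and 61.1% in KI1 and KI3, 73.1% in KI2 and 15.7% in WT2. On chromosome 10, the tile from 55835000 to 55835999 stood over 7 positions at 76.2, 66.1, 92.9 and 24.2% in the same order, and on chromosome 15, that from 73511000 to 73511999 at 100, 82.9, 100 and 42.9% over 3. In these 3 tiles, picked for the widest gap above among tiles with at least 3 positions in KI2, that library lay with its genotype.

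WT1 divided its 3 widest tiles above. On chromosome 11, the tile from 116377000 to 116377999 stood at 38.3 and 45.7% in KI1 and KI3, 5.56% in WT2 and 12.5% in WT1. On chromosome 9, that from 107209000 to 107209999 stood at 48.1, 45.1, 13.8 and 57.9% in this order, and on chromosome 2, that from 155212000 to 155212999 at 48.0, 51.2, 18.03 and 57.4%. WT1 thus lay near its genotype in the first and above the knock-in libraries in the others.

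Below, the tile on chromosome 4 from 135794000 to 135794999 stood at 34.4% in KI2 over 6 shared positions, between 11.7 and 14.8% in the knock-in libraries and 56.7% in WT2. That on chromosome 18 from 13148000 to 13148999 read 0% in KI2 over 107 calls. Another, on chromosome 11 from 120819000 to 120819999, stood at 49.0 and 46.3% in KI1 and KI3 but 79.6% in KI2, beside 81.1% in WT2. The first 2 of these kept all knock-in libraries below the wild-type library.

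WT1 lay on the side of the knock-in libraries in 2 of its 3 widest tiles below. The tile on chromosome 2 from 157386000 to 157386999 stood at 31.7, 18.5 and 66.9% in the deep libraries over 5 shared positions and at 20.0% in WT1. That on chromosome 4 from 20754000 to 20754999 stood at 40.3, 60.4 and 92.3%, and at 28.6% in WT1. On chromosome 19, the tile from 17409000 to 17409999 stood at 44.8, 43.0 and 76.2%, and at 81.2% in WT1, so that of these 3 tiles only this one had both wild-type libraries above both deep knock-in libraries.

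Other tiles of the widest gaps also had shallow values. On chromosome 17, the tile from 71687000 to 71687999 stood at 37.2% in KI2 over all 6 positions, near WT2 at 30.0% and below KI1 and KI3. On chromosome 16, that from 35269000 to 35269999 stood at 73.8% in KI2 over 4 positions. There WT2 stood at 63.1%, and KI1 and KI3 at 98.5 and 93.3%. In the tile on chromosome 12 from 31796000 to 31796999, KI2 listed 1 counted position, 31796176, at 0% over 10 reads. At that position KI1, KI3 and WT2 stood at 100, 44.4 and 2.5%. On chromosome 5, the tile from 21179000 to 21179999 stood at 17.1% in WT1 over 3 positions, near WT2. On chromosome 11, that from 83707000 to 83707999 stood at 61.2% in KI2, between the knock-in libraries and WT2. The tile on chromosome 18 from 30427000 to 30427999 was the only 1 of the 12 with at least 3 positions in each shallow library, at 0% in KI2 over 72 calls and 20.6% in WT1 over 136 calls, on different positions. There the genotypes kept their sides in all 5 libraries.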

How the data were processed

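All 5 libraries, of 3 knock-in and 2 wild-type samples, were made by extended RRBS (ERRBS), which sequences bisulfite-treated MspI fragments. The submitters' processing notes name CASAVA 1.7, Bismark without a version, and build mm9. Per the file headers, the deposited tables give the read count (coverage) at each CpG cytosine and strand and the percent of reads with C and with T. They list positions with at least 10 reads. Duplicate removal and correction for conversion are not given in the sources used here.

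Calls were rebuilt as coverage times percent. A tile level is the percent of methylated calls over positions counted in all 3 deep libraries. Counting intervals are 95% Wilson intervals. Named tiles followed a rule on gap, positions and calls: the 6 widest gaps each way with at least 5 positions and 100 calls, the 3 most widely parted knock-in pairs, the 3 tiles with most positions per level class, and the 3 widest gaps each way per shallow library. Members and lists were chosen with earlier results of these data known. No test was run. Code was tested on simulated data. Alternatives changed coverage, positions, tile start, weighting, libraries and depth. Python 3.11.15, numpy 2.4.6, pandas 2.3.3, statsmodels 0.14.6 and matplotlib 3.10.9 were used.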

Additional observations from a re-analysis of the deposited data

How the results depend on the processing

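The difference between knock-in and wild-type means stayed positive in every setting run, from 0.376 points without KI1 to 1.81 points without KI3, and from 1.10 to 4.05 points in members of 20 to 80%. Counts moved with the set of tiles. With 20 reads per position there were 12452 members, 406 above and 121 below, 54.99% at 80% or more and 33.1% under 20%. With 5 positions per tile these values were 12010, 320, 88, 49.7% and 37.5%. With no position in either shallow library they were 7623, 413, 152, 66.2% and 16.3%, and with at least 100 calls in each deep library, added after seeing the data, 11902, 305, 85, 50.1% and 37.2%. Shared tiles gave 318 above, 87 below, 30.2% at 80% or more and 63.5% under 20%. A gap of 20 points left 162 and 69 members, against 256 and 82 of all 62722 tiles. Judged by 1 knock-in library alone, 2043 to 3663 members (7.09 to 12.7%) were above and 1588 to 2093 (5.51 to 7.26%) below. Over all 62722 tiles these shares were 5.12 to 9.67% and 3.72 to 4.77%. With 1 knock-in library left out, 61.7 to 62.3% of members stood at 80% or more. The ratio of above to below was 1.29 to 3.66 over all settings, lowest without KI1. The call-weighted level of KI1 minus KI3 was -1.32 points over all members and 2.16 points without the tile on chromosome 16 with the most calls, added after seeing the data. Of 75 values under alternatives, 43 were unchanged by the limits used (1 SD between the knock-in libraries, or 1.5 times for counts) and only this 1 changed direction. For the mean differences of 1.09 and 2.94 points these limits were 1.01 and 2.56 points, nearly as wide as the differences. The falls to 0.376 and 1.10 points without KI1 therefore counted as unchanged. Shifted tile starts, leaving out the top 0.1% of coverage, equal weights and thinned reads (the last added after seeing the data) moved no value past these limits.

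Depth limits single tiles: WT2 had a median of 96 calls per member, and 1 deep wild-type library gives no spread for that genotype.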

Other observations

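A single member held reads far out of proportion to the rest. On chromosome 16, the tile from 23989000 to 23989999 had 454525 calls over 4 positions in KI1, or 6.71% of all calls of that library in members, against 231 in KI3 and 63 in WT2. The next highest member of that library had 4541 calls. Its level was 0.131% in KI1 and 0% in the other deep libraries. WT1 listed the same 4 positions with 11 to 21 reads.

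Weighted by calls, members stood at 48.5% in KI1, 49.8% in KI3 and 47.8% in WT2. Without the tile on chromosome 16, added after seeing the data, these levels were 51.96, 49.8 and 47.8%, so that the place of KI1 below KI3 rested on that tile.

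Between chromosomes the members made up 42.2 to 48.99% of the tiles measured in the deep libraries, lowest on chromosome 19 and highest on chromosome 3.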
